A study of Homo sapiens with 8 samples.

Results

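Ribosome biogenesis is the assembly of ribosomes in the nucleolus. RNA polymerase I transcribes the precursor of the ribosomal RNAs, small nucleolar ribonucleoproteins (snoRNPs) guide its chemical modification and cleavage, and assembly factors fold it with ribosomal proteins into the small and the large subunit. MYC, a transcription factor that binds with its partner MAX to a short DNA motif called the E-box, is known to drive many of these genes, and growing cells with much MYC have large nucleoli.

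The 36 genes described here were taken from a list of nucleolar genes by name, a list drawn up with earlier results of these data known, and the question was whether they follow the level of MYC RNA in cells that express TIA1 or TIAR. They are measured by 49 of the 50599 probes of the array, which carry 36337 gene names. Each gene is given by its brightest probe, and that probe was well above background on all 8 arrays for every one of the 36 genes. FT293 cells are human embryonic kidney (HEK293) cells into which a transgene was placed at a single genomic site and is switched on with tetracycline. RNA of 4 such lines, which express GFP, GFP-HuR, GFP-TIA1 or GFP-TIAR and are called GFP, HuR, TIA1 and TIAR below, was measured on one-colour arrays, 2 per line. HuR, TIA1 and TIAR are RNA-binding proteins. Each line is labelled as expressing its protein, so HuR is a further treatment and GFP the neutral control, and each line is a single isogenic population. The labels do not say that the arrays of a line come from separate cultures, so p-values measure only the spread between these arrays, which may be technical.

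Signals are given as log2 values relative to the 75th percentile of each array, so a value of 0 is the signal of that percentile, and probes of different genes cannot be ranked by them. GFP 1 stood apart: 86% of its probes were well above background against 53.2% to 58.5% on the other 7 arrays, and its mean local background was 83.2 intensity units. All 8 arrays lay on 1 slide, with the arrays of each line side by side, so that position and line cannot be told apart. The HEK293 markers KRT8, KRT18, VIM, PAX2 and NEFL were well above background on 8 arrays and NEFM on 7. Of the markers of other cell types reported here, leukocyte PTPRC was so on 8 arrays, hepatocyte ALB on 6, cardiac MYH7 on 4, T cell CD3E on 2 and erythroid HBB on 1. Some markers differed between the lines: ALB was higher than in HuR by 2.82 in TIA1 and 2.61 in TIAR, MYH7 by 1.5 in TIA1, and NEFL was lower by -1.40 and -1.68. ALB and MYH7 were each well above background on 1 HuR array and passed the filter only through a TIA line, which favours a higher value there. Summed on a linear scale on which 1 is the 75th percentile of the array, those 5 markers of other cell types came to 0.0998 to 0.104 in HuR, 0.236 to 0.255 in TIA1, 0.186 to 0.231 in TIAR and 0.113 to 2.63 in GFP, against 102 to 168 for the 6 HEK293 markers, and their part in the results was not tested. The TIAL1 probe, which measures TIAR RNA, was higher in TIAR than in HuR by 2.44 on the log2 scale. The brightest probes of TIA1 and ELAVL1 did not read higher in the line labelled for them. That of TIA1 was lower in TIA1 than in HuR by -0.98 (adjusted p = 0.0047) and read -1.03 against GFP (adjusted p = 0.12). That of ELAVL1, the gene of HuR, read -0.63 in HuR against GFP (adjusted p = 0.23). Against HuR, TIA1 RNA was also lower in TIAR, by -1.58, and TIAL1 RNA in TIA1, by -0.81. The paper reports that expressed TIA1 or TIAR depletes the endogenous TIA proteins, and that expressed HuR lowers endogenous HuR. Whether these probes lie within the transgenes was not examined, nor were the levels of the dimmer TIA1 and TIAL1 probes that passed the filter.

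The E-box motif CACGTG, which reads the same on both strands, is shown for members whose promoter holds it, because it is the site at which MYC and MAX are known to bind. The promoter is the window from 250 bases before to 50 bases after the annotated start in RefSeq (GRCh38.p14), and 30 of the 36 genes had an entry. Each sequence is 30 bases on the gene's strand, 5′ to 3′, with the motif in capitals. The first 7 belong to genes that were lower in TIA1 and in TIAR than in HuR, and the last 2 to genes that were not called.
NAT10 (chr11:34105602-34105631, +): aatgcgcttgcgCACGTGctgtctaccagt
RRP9 (chr3:51941892-51941921, -): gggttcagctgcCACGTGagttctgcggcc
NOP14 (chr4:2963374-2963403, -): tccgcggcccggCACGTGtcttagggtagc
WDR43 (chr2:28894658-28894687, +): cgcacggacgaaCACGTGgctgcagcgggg
BYSL (chr6:41921515-41921544, +): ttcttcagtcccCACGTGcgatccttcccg
PNO1 (chr2:68157885-68157914, +): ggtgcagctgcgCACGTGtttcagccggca
MYBBP1A (chr17:4555340-4555369, -): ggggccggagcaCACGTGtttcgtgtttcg
FBL (chr19:39846356-39846385, -): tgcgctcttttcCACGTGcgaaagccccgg
UTP20 (chr12:101280083-101280112, +): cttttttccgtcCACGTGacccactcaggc

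The motif was present in 12 of 30 promoters of these genes (40%), and in 1407 of 15843 promoters of protein-coding genes (8.88%). Among other ribosome biogenesis genes, named below, it was present in 22 of 80 (27.5%). The related motif CACGCG, searched on both strands, was present in 11 of 30 (36.7%), against 14.8% of all protein-coding promoters. In NAT10 the motif began 15 bases before the start and in RRP9 5 bases before it, whereas in BYSL it began at base 29 of the transcript. A match of letters is a description and shows no binding.

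MYC RNA was lowest in TIAR and highest in HuR. Its log2 signal was 2.71 and 3.04 on the GFP arrays, 3.37 and 3.41 on the HuR arrays, 2.32 and 2.26 on the TIA1 arrays and 1.73 and 1.89 on the TIAR arrays. No array of a TIA line overlapped with an array of GFP or HuR. The log2 fold change of MYC against HuR was -1.10 ± 0.09 in TIA1 (± standard error, here and below, adjusted p = 0.0037 from limma) and -1.59 ± 0.11 in TIAR (adjusted p = 0.005). Without HuR 1 or HuR 2, the TIAR value remained near this size (-1.60 and -1.57) but missed the threshold (adjusted p = 0.063 and 0.058). Against GFP the log2 fold changes of -0.58 (adjusted p = 0.24) and -1.07 (adjusted p = 0.21) did not pass the test. MAX, its partner, did not pass the test against HuR, with log2 fold changes of -0.10 and -0.20. MYCN, a relative of MYC, did not rise well above background in HuR, where its mean log2 signal was -7.41. It was at least 2.63-fold higher in TIA1 (mean -4.63) and at least 3.68-fold higher in TIAR (mean -4.14). The MYCN probe passed the filter only through the TIA arrays, which favours a higher value there, so no p-value is given.

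**Figure D1:**
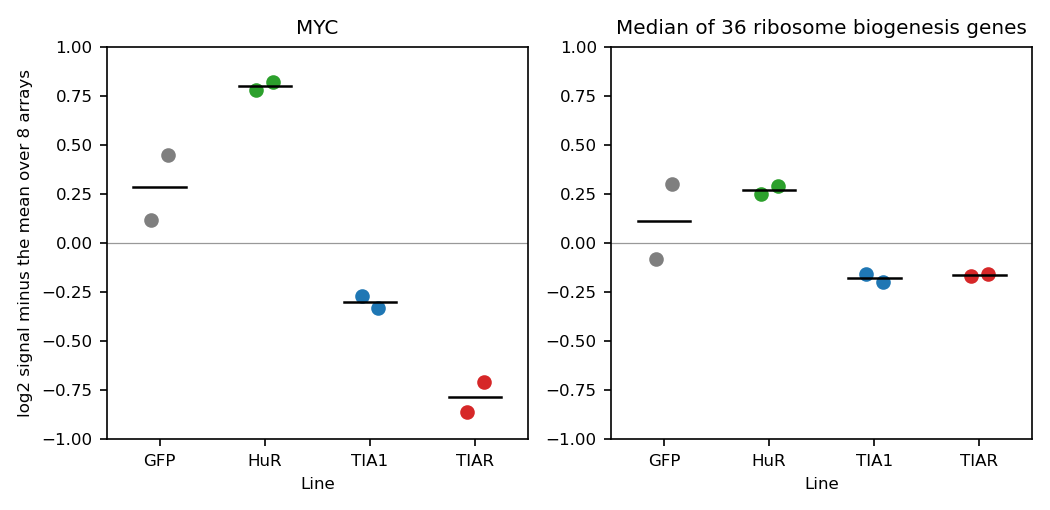
Each point is 1 array, the black bars are the means of 2 arrays per line, and the vertical axes give the log2 signal minus its mean over 8 arrays, for MYC on the left and for the median of the 36 ribosome biogenesis genes on the right. MYC stepped from HuR (0.78 and 0.82) to TIA1 (-0.27 and -0.33) and TIAR (-0.86 and -0.71), whereas the median of the 36 genes lay between -0.20 and -0.16 on all 4 arrays of the TIA lines.

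In TIA1-expressing cells, 22 of the 36 genes were lower than in HuR-expressing cells and 0 were higher, at an adjusted p under 0.05. Of all 28739 probes tested, 17.3% were lower and 24.2% were higher, so the members' share of 61.1% lower lay above the background and their share higher below it. The differences were small: the median log2 fold change of the 36 genes was -0.45, against 0.08 over all probes tested. RRP12 alone was also at least 2-fold lower, against 4.9% of all probes.

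TIAR-expressing cells gave 17 genes lower than HuR and 1 higher, NIP7. Over the 29096 probes tested there, 12.6% were lower and 18.1% higher, and the members' share lower was 47.2%. The median log2 fold change was -0.41, against 0.05 over all probes, but in the authors' value table it was -0.22, against -0.05. Of the 36 genes, 0 were at least 2-fold lower, against 3.01% of probes. The comparisons share the HuR arrays. The calls rest on the HuR pair, whose arrays differed by a median of 0.06 for these genes. With either HuR array left out, few or no adjusted calls remained among these genes. Their share of adjusted calls then did not exceed that of all probes tested. The medians without HuR 1 and without HuR 2 were -0.45 and -0.43 for TIA1 and -0.45 and -0.41 for TIAR. At an unadjusted p under 0.05 the genes with 1 HuR array left out numbered 16 and 14 for TIA1 (44.4% and 38.9%, against 34.3% and 33.5% of probes) and 12 and 14 for TIAR (33.3% and 38.9%, against 28.2% and 27% of probes). Those that were lower made up 44.4% and 38.9% of the genes in TIA1, against 14.3% and 14.2% of probes, and 30.6% and 36.1% in TIAR, against 11.2% and 10.8%.

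**Figure D2:**
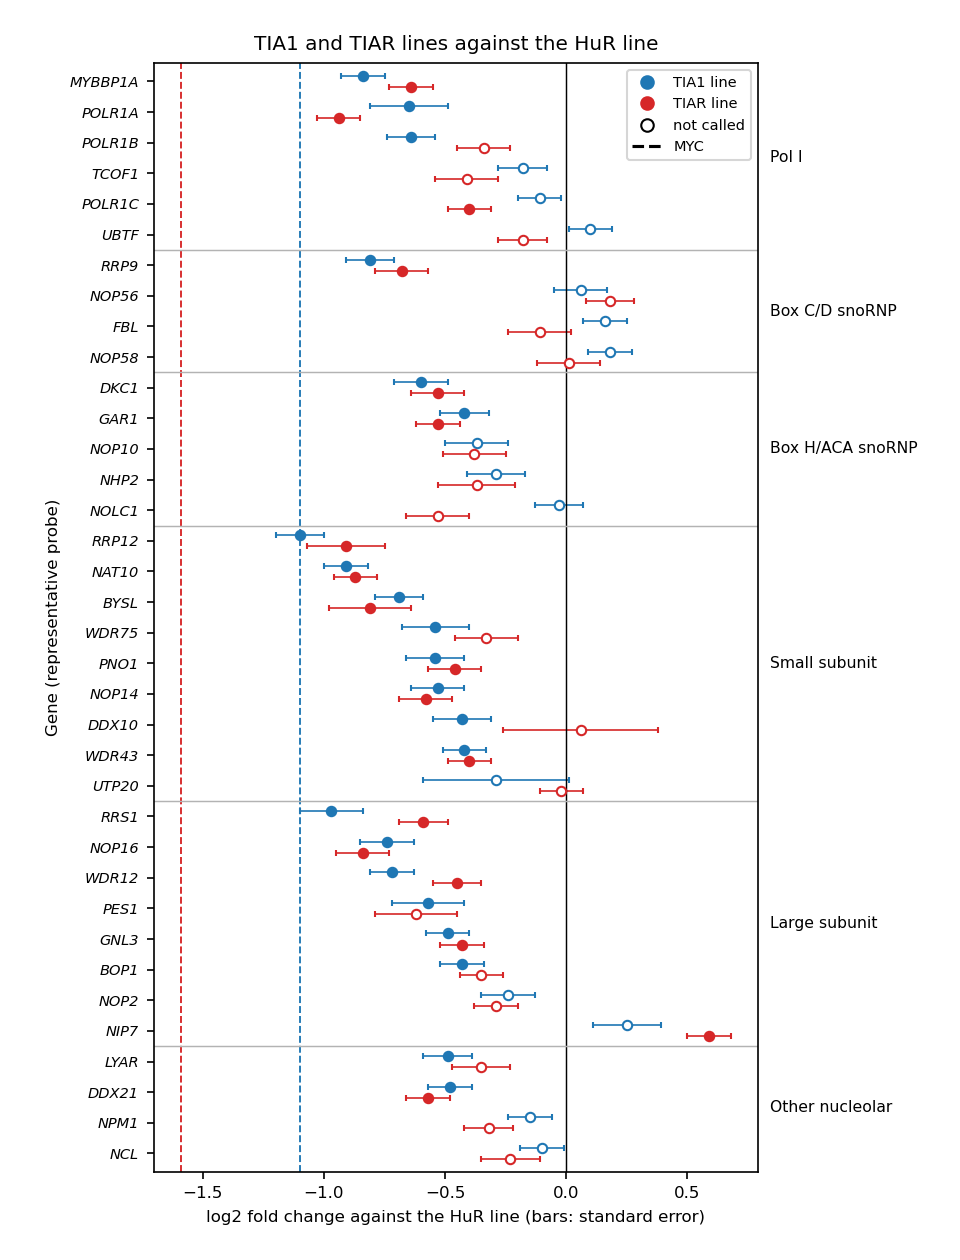
Log2 fold change of each gene against HuR on the horizontal axis, with the standard error as bars, for TIA1 (blue) and TIAR (red), grouped by role. Filled points were called at an adjusted p under 0.05, and dashed lines mark MYC at -1.10 and -1.59. The small subunit factors lie almost wholly to the left of 0, and the box C/D proteins other than RRP9 lie around it.

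Among the genes of RNA polymerase I transcription, 3 of 6 were lower in each TIA line. POLR1A encodes the largest subunit of the enzyme. Its log2 signal was 0.33 and 0.42 in HuR, -0.47 and -0.09 in TIA1 and -0.57 and -0.56 in TIAR. The GFP arrays, at 0.44 and 0.61, were also above both TIA lines. The log2 fold change against HuR was -0.65 ± 0.16 in TIA1 (adjusted p = 0.037) and -0.94 ± 0.09 in TIAR (adjusted p = 0.008). A further POLR1A probe, made for the transcript ENST00000486964, went the other way. It did not rise well above background in HuR (mean log2 signal -6.64) and was at least 2.89-fold higher in TIA1 (mean -4.49). This probe passed the filter only through its TIA1 arrays, which favours a higher value there, so its test decides nothing. In TIAR it was not tested. The mean of both probes was 0.75 higher in TIA1 than in HuR, with the same limit, so the lower value holds for the brighter probe.

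MYBBP1A, a nucleolar protein that binds MYB and takes part in pre-rRNA processing, had the largest difference of this group in TIA1. Its log2 signal was 2.23 on each HuR array, 1.42 and 1.35 in TIA1 and 1.62 and 1.55 in TIAR, and 2.24 and 2.44 in GFP. The TIA arrays were thus lower than every array of GFP and HuR, with log2 fold changes against HuR of -0.84 ± 0.09 (adjusted p = 0.0059) and -0.64 ± 0.09 (adjusted p = 0.015). POLR1B, the next-largest subunit, was lower in TIA1 (-0.64, adjusted p = 0.013), with -0.34 in TIAR (adjusted p = 0.083). A dimmer POLR1B probe had -0.69 in TIA1 (adjusted p = 0.097) and -1.50 in TIAR (adjusted p = 0.018). POLR1C, a subunit shared with RNA polymerase III, was lower in TIAR (-0.40, adjusted p = 0.042), and its log2 fold change in TIA1 was -0.11 (adjusted p = 0.39). Dimmer POLR1C probes gave -0.31 (adjusted p = 0.15) and -0.03 (adjusted p = 0.9) in TIAR, and 0.08 and 0.23 in TIA1, without passing. The TIAR call held in 1 of 8 alternatives that kept all arrays.

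UBTF, the factor that opens the ribosomal DNA for transcription, had log2 fold changes of 0.10 and -0.18 against HuR, and neither passed the test. TCOF1, which encodes treacle, had -0.18 in TIA1 and -0.41 in TIAR by its brightest probe, without passing. Another TCOF1 probe was lower in both lines, by -0.56 (adjusted p = 0.023) and -0.52 (adjusted p = 0.037). The remaining TCOF1 probe gave -0.03 (adjusted p = 0.85) and -0.24 (adjusted p = 0.29), without passing.

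Of the box C/D snoRNP proteins, which guide methylation of ribosomal RNA, 1 of 4 was lower in each TIA line. That gene was RRP9, which belongs to the U3 particle needed to cleave the precursor. Its log2 signal was 2.21 and 2.20 in HuR, 1.32 and 1.48 in TIA1 and 1.45 and 1.61 in TIAR, while GFP had 2.18 and 2.37. The groups did not overlap, and the log2 fold changes against HuR were -0.81 ± 0.10 (adjusted p = 0.008) and -0.68 ± 0.11 (adjusted p = 0.017).

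The core proteins of these particles did not pass the test. FBL, the methyltransferase fibrillarin, had log2 signals of 8.11 on each HuR array, 8.31 and 8.22 in TIA1, 8.12 and 7.87 in TIAR and 7.51 and 7.85 in GFP, so that only the GFP arrays lay below all others. NOP56 and NOP58, which bind fibrillarin, had log2 fold changes between 0.01 and 0.18. A junction-spanning probe of NOP56 disagreed, with a log2 fold change of -1.63 ± 0.30 in TIA1 (adjusted p = 0.018) and -0.61 in TIAR (adjusted p = 0.23).

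Box H/ACA particles guide pseudouridylation, and 2 of their 5 proteins were lower in each TIA line. DKC1, the pseudouridine synthase dyskerin, had log2 signals of 4.90 and 4.78 in HuR, 4.32 and 4.16 in TIA1 and 4.36 and 4.24 in TIAR. Its GFP arrays, at 4.57 and 4.93, were above both TIA lines as well. The log2 fold changes against HuR were -0.60 ± 0.11 (adjusted p = 0.019) and -0.53 ± 0.11 (adjusted p = 0.03). GAR1, a core protein of the particle, was lower by -0.42 (adjusted p = 0.036) and -0.53 (adjusted p = 0.021). Its GFP arrays read 3.54 and 4.41, the widest replicate gap among the 36 genes in GFP, and enclosed the values of both TIA lines.

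NHP2 and NOP10, the remaining core proteins, had log2 fold changes between -0.38 and -0.29 that did not pass the test. NOLC1, a chaperone of snoRNPs, had -0.03 in TIA1 and -0.53 in TIAR (adjusted p = 0.05, above the threshold before rounding).

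Small subunit factors were the group with the most calls. In TIA1, 8 of 9 were lower than in HuR, with a median log2 fold change of -0.54, and in TIAR 6 of 9, with a median of -0.46. RRP12, a factor needed to export and mature the subunit, had log2 signals of 1.26 and 1.33 in HuR, 0.25 and 0.14 in TIA1, 0.19 and 0.58 in TIAR and 1.11 and 1.30 in GFP. Every TIA array lay below every other array. The log2 fold change against HuR was -1.10 ± 0.10 in TIA1 (adjusted p = 0.0041), a level 2.14-fold lower, and -0.91 ± 0.16 in TIAR (adjusted p = 0.024). The RRP12 probe lies at chr10:99123617-99125880 (hg19) and spans an intron.

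NAT10, which acetylates the small-subunit ribosomal RNA, was nearly level across the TIA arrays. It read 2.12 and 2.06 in HuR, 1.92 and 2.24 in GFP, 1.19 and 1.17 in TIA1 and 1.22 on each TIAR array. The TIA arrays did not overlap with those of GFP or HuR, with log2 fold changes against HuR of -0.91 ± 0.09 (adjusted p = 0.0049) and -0.87 ± 0.09 (adjusted p = 0.0087). Its probe lies on chromosome 11 at chr11:34167990-34168049 (hg19).

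BYSL, or bystin, acts late in assembly of the subunit and had log2 signals of 4.21 and 4.13 in HuR, 3.67 and 4.32 in GFP, 3.44 and 3.52 in TIA1 and 3.56 and 3.15 in TIAR. It was lower than in HuR by -0.69 (adjusted p = 0.0097) and -0.81 (adjusted p = 0.032). PNO1, its partner in late maturation, was lower by -0.54 (adjusted p = 0.028) and -0.46 (adjusted p = 0.042). NOP14 and WDR43, proteins of the early small-subunit processome, were lower in both lines, NOP14 by -0.53 and -0.58 and WDR43 by -0.42 and -0.40. A dimmer NOP14 probe gave -0.27 (adjusted p = 0.095) and -0.33 (adjusted p = 0.068), without passing. For WDR43 the GFP arrays, at 0.69 and 0.91, lay below those of every other line, and the TIA lines therefore lay between GFP and HuR (1.56 and 1.55).

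WDR75, which works with WDR43, was lower in TIA1 (-0.54, adjusted p = 0.038), with -0.33 in TIAR (adjusted p = 0.12). DDX10, an RNA helicase, was lower in TIA1 (-0.43, adjusted p = 0.046), while its TIAR arrays of 3.35 and 2.45 were the most discordant pair of all and gave 0.06 against HuR. UTP20, a large scaffold of the processome, was at 1.08 on both HuR arrays but at 0.38 and 1.21 on the TIA1 arrays. Its log2 fold change in TIA1 was -0.29 (adjusted p = 0.47), and without TIA1 2 it was -0.71 (adjusted p = 0.023), a value whose error comes from the HuR pair alone, with the lone TIA1 array assumed to vary as that pair did. The value in TIAR was -0.02.

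**Figure D3:**
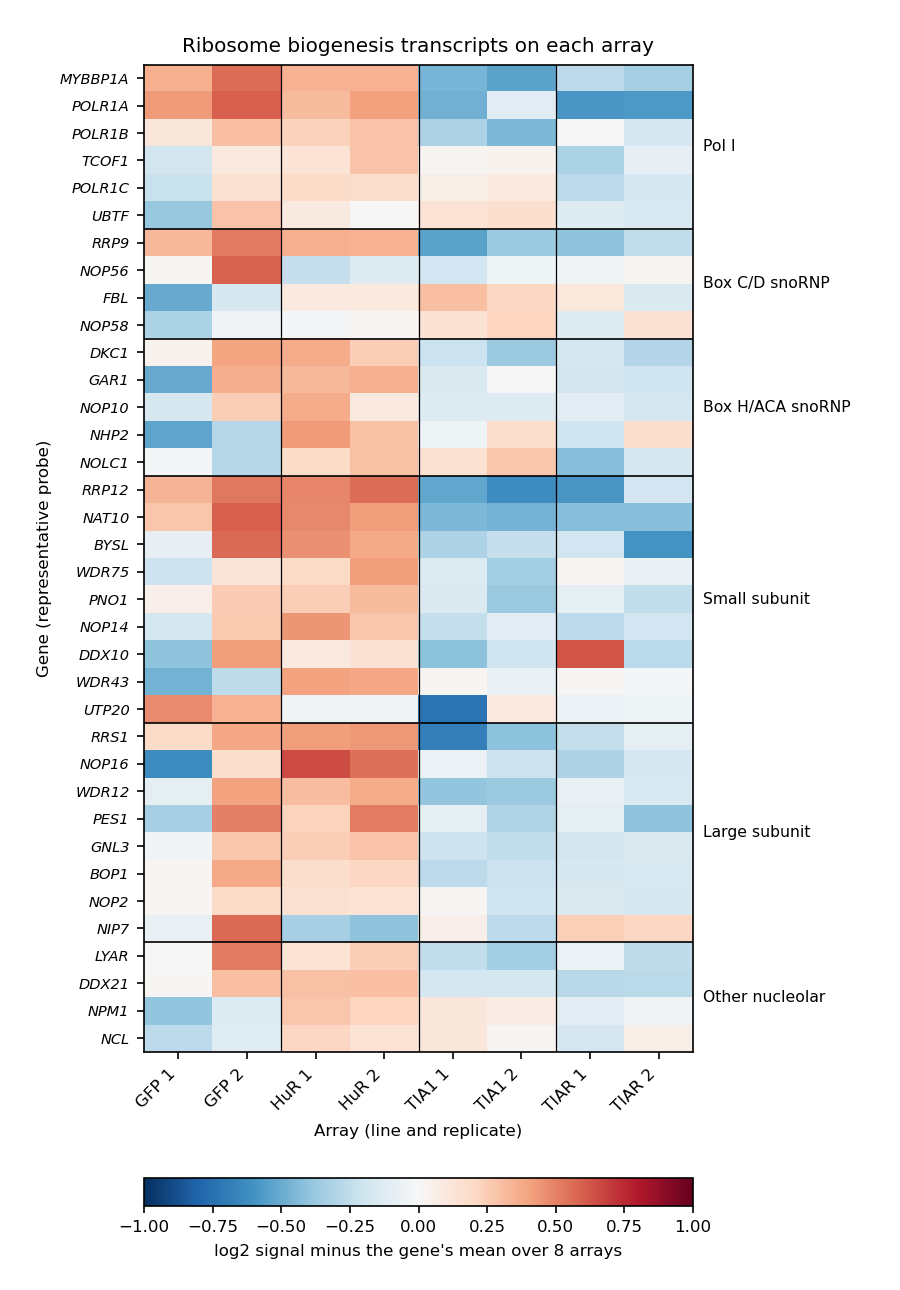
Colours give the log2 signal of each gene (rows, by role) on each of the 8 arrays (columns) minus the gene's mean over 8 arrays, from -1 (blue) to 1 (red). RRP12, NAT10, MYBBP1A and RRP9 are red on all 4 GFP and HuR arrays and blue on all 4 TIA arrays, and GFP 1 is paler or bluer than GFP 2 in most rows, with a median difference of -0.30.

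For the large subunit, 6 of 8 factors were lower in TIA1 and 4 of 8 in TIAR. PES1, BOP1 and WDR12 together form the PeBoW complex, which processes the large-subunit ribosomal RNAs. WDR12 read 2.58 and 2.64 in HuR, 1.88 and 1.90 in TIA1, 2.20 and 2.12 in TIAR and 2.18 and 2.67 in GFP. It was lower than in HuR by -0.72 ± 0.09 (adjusted p = 0.0079) in TIA1 and by -0.45 ± 0.10 (adjusted p = 0.035) in TIAR. The TIAR call held in 2 of 8 alternatives that kept all arrays. PES1 and BOP1 were lower in TIA1, by -0.57 (adjusted p = 0.042) and -0.43 (adjusted p = 0.025), and just missed the threshold in TIAR with -0.62 (adjusted p = 0.059) and -0.35 (adjusted p = 0.052).

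RRS1, which helps to bring the 5S particle into the large subunit, read 2.73 and 2.74 in HuR, 1.63 and 1.90 in TIA1, 2.07 and 2.21 in TIAR and 2.50 and 2.70 in GFP. The lines ordered without overlap as HuR or GFP above TIAR above TIA1, with log2 fold changes against HuR of -0.97 ± 0.13 (adjusted p = 0.0084) and -0.59 ± 0.10 (adjusted p = 0.022). TIAR and TIA1 differed for it by 0.38 without passing the test (adjusted p = 0.22). NOP16, a nucleolar factor of the large subunit, was lower than in HuR by -0.74 (adjusted p = 0.011) and -0.84 (adjusted p = 0.012). Its GFP arrays read 2.97 and 3.77 and enclosed every TIA array, so for NOP16 the difference was between HuR and the TIA lines.

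GNL3, the GTPase nucleostemin, was lower by -0.49 (adjusted p = 0.018) and -0.43 (adjusted p = 0.034). NOP2, which methylates the large-subunit ribosomal RNA, had -0.24 and -0.29 and did not pass, although all 4 of its TIA arrays lay below the GFP and HuR arrays. NIP7, which acts in precursor processing, was the exception in direction: it read 2.01 and 1.94 in HuR, 2.58 and 2.55 in TIAR, 2.39 and 2.08 in TIA1 and 2.27 and 2.91 in GFP. It was higher in TIAR than in HuR by 0.59 ± 0.09 (adjusted p = 0.018), and the HuR arrays were the lowest of all.

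Of the other nucleolar proteins, DDX21, an RNA helicase that links polymerase I with processing, was lower in both lines. It had log2 signals of 5.34 and 5.35 in HuR, 4.87 on each TIA1 array, 4.77 and 4.78 in TIAR and 5.06 and 5.35 in GFP. Replicates agreed within 0.01 in 3 lines, and the log2 fold changes were -0.48 ± 0.09 (adjusted p = 0.019) and -0.57 ± 0.09 (adjusted p = 0.018). LYAR, a nucleolar zinc finger protein, was lower in TIA1 (-0.49, adjusted p = 0.024), with -0.35 in TIAR (adjusted p = 0.089).

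The abundant proteins nucleolin (NCL) and nucleophosmin (NPM1) did not pass the test, with log2 fold changes between -0.32 and -0.10. NPM1 has 4 probes, and the value is uncertain: the other 3 gave log2 fold changes between -0.47 and -0.36, of which 2 passed in TIA1 and 1 in TIAR, and the array design places 1 of them on chromosome 15, away from the gene on chromosome 5.

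Against the neutral GFP line, 0 genes were called in either direction in TIA1, TIAR or HuR by limma, and the same held for 0% of the 28040, 28600 and 28868 probes tested, lower or higher. At an unadjusted p under 0.05 there were 7 genes in TIA1, 5 in TIAR and 2 in HuR. These are 19.4%, 13.9% and 5.56% of the genes, below the 21.7%, 16.4% and 17.2% of all probes that reached it in either direction. The genes in TIA1 and TIAR were all lower, against 9.74% and 7.18% of probes. The 5 in TIAR were RRP9, RRP12, POLR1A, NAT10 and MYBBP1A, those in TIA1 were the same with RRS1 and POLR1B, and those in HuR were NHP2 and WDR43. RRP12, for example, had a log2 fold change against GFP of -1.01 ± 0.20 in TIA1 (adjusted p = 0.12) and -0.82 ± 0.24 in TIAR (adjusted p = 0.26). The GFP arrays differed by a median of 0.30 for the 36 genes, against 0.06 in HuR, 0.11 in TIA1 and 0.09 in TIAR. With GFP 1 or GFP 2 left out, single genes passed, but those fits rest on 1 GFP array and no conclusion is drawn from their calls. Without GFP 1 the medians were -0.5 in TIA1 and -0.43 in TIAR, against 0.04 and 0.02 over all probes. The medians without GFP 2 are given below.

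Counted by whether arrays overlapped, 18 of the 36 genes had both TIA1 arrays below both GFP arrays, against 26.5% of probes, and 7 had them above, against 31.1%. For TIAR the counts were 17 below, against 25.7% of probes, and 4 above, against 27.6%. HuR showed the opposite balance to GFP, with 13 above, against 27.7%, and 5 below, against 29.9%. The median log2 fold change against GFP was -0.33 in TIA1, -0.27 in TIAR and 0.14 in HuR. The last turned to -0.02 with quantile normalization, to -0.08 in the authors' value table and to -0.02 without GFP 1, so no direction can be given for HuR against GFP. Without GFP 2 the medians for TIA1 and TIAR were -0.07 and -0.03, and those of all probes -0.68 and -0.64.

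For 15 of the 36 genes, all 4 TIA arrays lay below all 4 GFP and HuR arrays, against 9.69% of 29576 probes. They were POLR1A, POLR1B, MYBBP1A, RRP9, DKC1, RRP12, NAT10, BYSL, PNO1, BOP1, NOP2, RRS1, GNL3, DDX21 and LYAR. For 0 genes did all TIA arrays lie above, against 12.7% of probes. Without GFP 1, counted after the data were seen, the genes below numbered 24, against 15.2% of probes. By line means, HuR was the highest line for 24 genes and GFP for 8, and the lowest was TIA1 for 15 genes and TIAR for 13. The order was not counted over all probes, so these counts have no background.

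The TIA lines were also compared with each other, since MYC was lower in TIAR. MYC differed between them by -0.48 on the log2 scale ± 0.12, without passing the test over all probes (adjusted p = 0.11, unadjusted p = 0.013). The median log2 fold change of the 36 genes was 0.00, with 18 of them below 0. By limma, 0 of the 36 genes were called in either direction, against 1.74% of 28059 probes lower and 1.74% higher. Unadjusted, 3 genes (8.33%) had a p under 0.05, against 23.8% of probes, all with lower values in TIAR: NOLC1 (-0.50), POLR1C (-0.30) and UBTF (-0.29). A difference as large as that of MYC was therefore not seen in the median of these genes, and single genes ranged from -0.50 for NOLC1 to 0.49 for DDX10 (± 0.33, adjusted p = 0.43).

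The other genes of the pathway were taken from lists of assembly factors and polymerase subunits. Of 97 further ribosome biogenesis genes tested, 43 were lower and 4 higher in TIA1 than in HuR, with a median log2 fold change of -0.35, and 33 were lower and 2 higher in TIAR, with a median of -0.32. Against GFP their medians were -0.16 and -0.20, with 0 called by limma. Among them, 24 of 42 small subunit factors were lower in TIA1, led by HEATR1 (-1.05), PWP2 (-0.94) and NOL6 (-0.86), and 16 in TIAR, led by NOL6 (-1.02), WDR46 (-0.84) and PWP2 (-0.79). DDX52, UTP6 and TSR2 were higher than in HuR in TIA1, by 1.08, 0.65 and 0.37, and UTP6 in TIAR by 0.60. Against GFP, DDX52 read 0.04 in TIA1, -0.63 in TIAR and -1.04 in HuR. UTP6 read -0.19, -0.23 and -0.84, and TSR2 0.36, 0.15 and -0.01, in the same order, none past the test.

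Large subunit factors outside the list were lower in 16 of 44 cases in TIA1 and in 13 in TIAR, with 0 higher. NOC3L, needed for maturation of the large-subunit precursor, was lower by -1.23 and -1.24. RPF2 and DDX54 followed in TIA1, with -0.72 and -0.69, and had -0.78 each in TIAR. Against GFP, RPF2 read -0.03 and -0.09, and DDX54 -0.60 and -0.68. In TIAR, MDN1, a large ATPase that remodels the particle, came between NOC3L and RPF2, lower than in HuR by -0.81. Of 11 further genes of RNA polymerase I, 3 were lower in TIA1 and 4 in TIAR. POLR1E, a subunit of the enzyme, was lower by -1.22 and -1.07. Against GFP it read -0.15 in TIA1 and 0.01 in TIAR, while HuR read 1.07 above GFP without passing the test (adjusted p = 0.18). Lower than in HuR, too, was TWISTNB, another subunit, by -0.83 in TIAR, with -0.20 against GFP. TAF1B, of the promoter selectivity factor, was lower by -0.47 and -0.70 and ZNRD1 by -0.34 and -0.52, whereas TAF1C of the same factor was higher in TIAR by 0.68. Against GFP, TAF1C read -0.06 in TIAR and -0.74 in HuR. TAF1B read 0.21 in TIA1, -0.02 in TIAR and 0.68 in HuR, and ZNRD1 -0.16, -0.34 and 0.18, none past the test.

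Of 20 MYC targets outside ribosome biogenesis, 10 were lower and 1 higher in TIA1, with a median log2 fold change of -0.38, and 9 were lower and 0 higher in TIAR, with a median of -0.36. Against GFP the medians were -0.18 and -0.24, with 0 called by limma. Cyclin D2 (CCND2) was lower than in HuR by -1.20 and -1.21, but against GFP it read 0.33 and 0.32 in the TIA lines and 1.53 in HuR, none past the test. The enzymes SRM and ODC1 make polyamines, and SRM was lower than in HuR by -0.82 and -0.67 and ODC1 by -0.61 and -0.76. Against GFP, SRM read -0.43 in TIA1, -0.28 in TIAR and 0.40 in HuR. ODC1 read -0.05, -0.20 and 0.56 there, none past the test. APEX1, a DNA repair enzyme, was lower in TIA1 by -0.78, and LDHA, the lactate dehydrogenase of glycolysis, in both lines by -0.68, while TYMS, which makes thymidylate, was higher in TIA1 by 0.77.

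**Figure D4:**
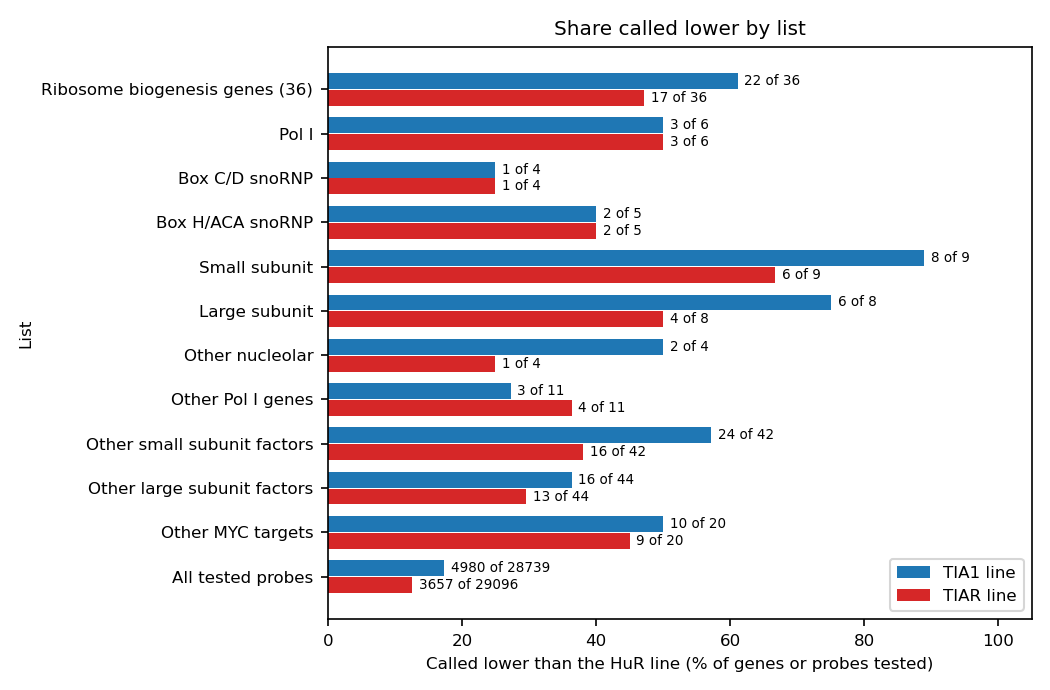
Bars give the percentage of genes of each list called lower than in HuR at an adjusted p under 0.05, in TIA1 (blue) and TIAR (red), with the counts beside them, and the lowest pair gives all probes tested. The 36 ribosome biogenesis genes reached 61.1% and 47.2%, against 17.3% and 12.6% of all probes, and every list was at 25% or more in both lines.

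The calls were also counted by promoter motif. In TIA1, 8 of the 12 genes with the motif and 11 of the 18 without it were lower than in HuR, and in TIAR 7 of 12 and 8 of 18. Of the 6 genes without an entry, 3 and 2 were lower. The motif was thus found in NAT10 and RRP9, which were lower in the TIA lines, and in FBL and UTP20, which were not called, and no test was made of this division.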

How the data were processed

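RNA of FT293 lines expressing GFP, HuR, TIA1 or TIAR, induced for 3 days, was hybridized to 8 one-colour human arrays. The deposited files give intensity values from Agilent Feature Extraction 10.7.3.1, background-subtracted and detrended by the authors within each array, with no step between arrays. The series table gives log2 values that the authors normalized to a common distribution, apart from the TIAR arrays, which have their own; its background correction is not given in the sources used here, and the submitters' processing notes name limma. The labelling protocol names a rat array, whereas the file headers give a human design on hg19.

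Here log2 processed signals were taken minus the array's 75th percentile, without outlier spots, and averaged by probe. A probe was tested where the scanner software marked it as well above background on each array of either compared line. Limma 3.58.1 (lmFit and eBayes, R 4.3.3) was run on the 4 arrays of a comparison, two-sided, with calls at a Benjamini-Hochberg adjusted p under 0.05 over all tested probes. The scripts were tested on simulated data. A gene is given by its passing probe with the highest mean. Named besides the 36 genes are MYC, MAX, MYCN, the expressed proteins, and up to 3 called genes per direction of each other list, by size of fold change. For an "at least" fold, the HuR mean was taken over arrays after raising the dim probe to the lowest signal that was well above background there. The alternatives were other background corrections, scalings and filters on dim probes, the authors' values, 1 fit of all arrays, a replicate block, the mean of a gene's probes, a 2-fold threshold and leaving out each array. Files were read with version 1.17.8 of data.table, promoters were searched with Python 3.11.15, and plots were drawn with matplotlib 3.10.9. The members and lists were chosen with earlier results of these data known. Precision is limited by having 2 arrays in each line. One marker of another cell type is not reported here.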

Additional observations from a re-analysis of the deposited data

How the results depend on the processing

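With 22 genes called for TIA1 against HuR and 18 for TIAR against HuR, counts came to 21 and 16 with normexp background correction (offset 50) and to 22 and 17 with quantile normalization. The shares of genes were 58.3% and 44.4% with normexp, against 44% and 33.6% of probes. With quantile normalization they were 61.1% and 47.2%, against 40.7% and 30.2%. With no filter on dim probes, 50599 probes were tested and counts came to 4 and 2 (11.1% and 5.56%, against 9.25% and 5.44% of probes). All 8 arrays in one fit gave 8 and 5 (22.2% and 13.9%, against 18.6% and 12.2%). Asking for at least 2-fold as well gave 1 and 0. The authors' value table gave 21 and 11 (58.3% and 30.6%, against 38.9% and 30.1% of probes). Of these, 1 was higher in TIA1 (NOP58) and 3 in TIAR (NIP7, NOP56 and NOP58). In that table the TIAR median was -0.22 against HuR and 0.15 against TIA1. Leaving out 1 array gave 0 to 19 for TIA1 and 0 to 14 for TIAR against HuR, and against GFP 0 to 4 for TIA1, 0 to 1 for TIAR and 0 to 6 for HuR, and 0 throughout for TIAR against TIA1. Fits with 1 array left out rest on a single array in a line, so no conclusion is drawn from their counts. Against GFP, the share of genes called in those fits never exceeded that of all probes tested. Against HuR it did so only where a TIA array was left out. With all 8 arrays in one fit, 7, 5 and 1 genes passed against GFP (19.4%, 13.9% and 2.78%, against 18.9%, 11.6% and 6.73% of probes). Without GFP 2 the medians were -0.07 for TIA1 and -0.03 for TIAR. The POLR1A value of 0.75 by the mean of its probes, and the HuR medians against GFP of -0.02 (quantile normalization), -0.08 (authors' value table) and -0.02 (without GFP 1), turned direction, and that median was 0.30 without GFP 2; the cause was not tested. Other scalings moved the median of all probes to between 0.12 and 0.24 where it passed 0.1, and to -0.12 for HuR against GFP with normexp. The share of lower calls among all called probes, 41.8% and 41%, was 33.3% and 32.8% with normexp and 49% and 50% with quantile normalization. Deviations of replicate 1 from the line means correlated between lines at -0.07 to 0.14, so the numbers do not pair the samples. With a replicate block 17 and 7 genes were called against HuR (47.2% and 19.4%, against 37.1% and 20.4% of probes). Some single calls were fragile. Of 8 alternatives that kept all arrays, the TIA1 call of DDX10 held in 2. The TIAR calls of WDR43, GNL3 and PNO1 held in 3 each. The count of 15 genes with all TIA arrays lowest was 13 with normexp, 20 with quantile normalization and 17 in the authors' value table. Of all probes, 7.93%, 9.01% and 7.27% met this rule in those settings, which were all added after the data were seen.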
